A study of Danio rerio with 16 samples.

Results

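The 6 genes described here, rps6ka5, acvr1bb, ankrd52a, pcdh20, mri1 and mlec, belong to a set of 7 that was picked out of 31388 gene rows because their counts stood low in mock-injected zebrafish embryos at 3 days post injection (dpi). Each was found by its symbol in the count tables, gave 1 row, and was among the 23623 genes that passed the filter on low counts. Comparisons with the 3 dpi mock libraries chose these genes, so those values are given as a description with no test. Wildtype embryos received into the yolk at 2 days post fertilization (dpf) 1 nl of red fluorescent polystyrene particles of 700 nm at 5 mg/ml in polyvinylpyrrolidone (particle), polyvinylpyrrolidone without particles (mock), or no injection (control). RNA came from 10 whole embryos per treatment group, taken at 1 dpi (3 dpf) or 3 dpi (5 dpf). At each time there were 3 control, 3 particle and 2 mock libraries, 16 in all, named here by their replicate letters A, B and C. Mock groups have A and B only, the file headers call every C library combined, and those of both particle C libraries read 70 nm where the labels say 700 nm. In bulk RNA of whole embryos, fewer cells of a type and less RNA per cell cannot be told apart. Replicates are called biological in the labels, and p-values measure the spread between these libraries.

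The working description of the set was signalling genes, which holds for part of it. Rps6ka5 (MSK1 in mammals) is a nuclear kinase that MAP kinases such as p38 activate and that phosphorylates CREB and histone H3 in mammalian cells. Acvr1bb is one of the zebrafish activin type I receptors (ALK4 in mammals), which phosphorylate Smad2 and Smad3 and also carry Nodal signals in the early embryo. Ankrd52a belongs to the ankyrin repeat subunits of protein phosphatase 6. Pcdh20 is a protocadherin, a cell adhesion protein of the cadherin family, and is described here as an adhesion gene. Mri1 and mlec are no signalling genes. Mri1 encodes the methylthioribose-1-phosphate isomerase of the methionine salvage pathway. Mlec encodes malectin, a lectin of the endoplasmic reticulum (ER) that binds glucosylated N-glycans on new glycoproteins. The genes lie on 6 different chromosomes: rps6ka5 (ENSDARG00000060551) on 17, acvr1bb (ENSDARG00000052142) on 6, ankrd52a (ENSDARG00000036826) on 23, pcdh20 (ENSDARG00000101910) on 14, mri1 (ENSDARG00000075754) on 1 and mlec (ENSDARG00000059630) on 8.

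Library totals ran from 8679739 to 19840148 counts. The 3 dpi mock libraries stood apart from the other 14 in ways that reach beyond these genes. They detected 25741 and 25785 genes against 26158 to 27363. The 100 most abundant genes took 32.003 and 38.8% of their counts against 19.9 to 31.4%, and mitochondrial genes took 5.48 and 6.13% against 2.85 to 5.02%. Their TMM factors, which correct library size for such composition, were 0.694 (A) and 0.886 (B) against 0.937 to 1.11. Summed over 19 skeletal muscle markers they held 88073 and 151792 CPM (counts scaled to the TMM library size) against 30366 to 87752, and over 18 erythroid markers 555 and 762 CPM against 848 to 3914. Over 19 neuron markers they held 5211 and 5352 CPM against 4039 to 5280, so that the lower mock value lay within the range of the others. Over 20 yolk and liver markers they held 1193 and 2846 CPM against 124 to 6896, and over 20 epidermis markers 14949 and 19066 CPM against 10272 to 23651, within the range of the other libraries in both cases. The part of these differences in the low levels of the 6 genes was not tested.

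Every one of the 6 genes had both 3 dpi mock libraries below all 14 other libraries, a pattern that 10% of all genes tested share. Counting only the libraries of 3 dpi, the mock pair lay below the other 6 for 6 of 6 genes, against 15.8% of all genes. Of all genes tested, 8.65% passed edgeR's test between 3 dpi particle and mock embryos, 1.61% between control and mock at 3 dpi (1.19% higher in controls, 0.428% lower), and 23.6% between the 2 times in mock embryos. Since the 6 genes were picked for standing low there, nothing is read from these counts. Over the 14 libraries outside 3 dpi mock, the coefficient of variation of the 6 genes ran from 17.8 to 33.7%, beside a median of 25.1% over all genes tested and of 20.3% over genes averaging 5 CPM or more.

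**Figure D1:**
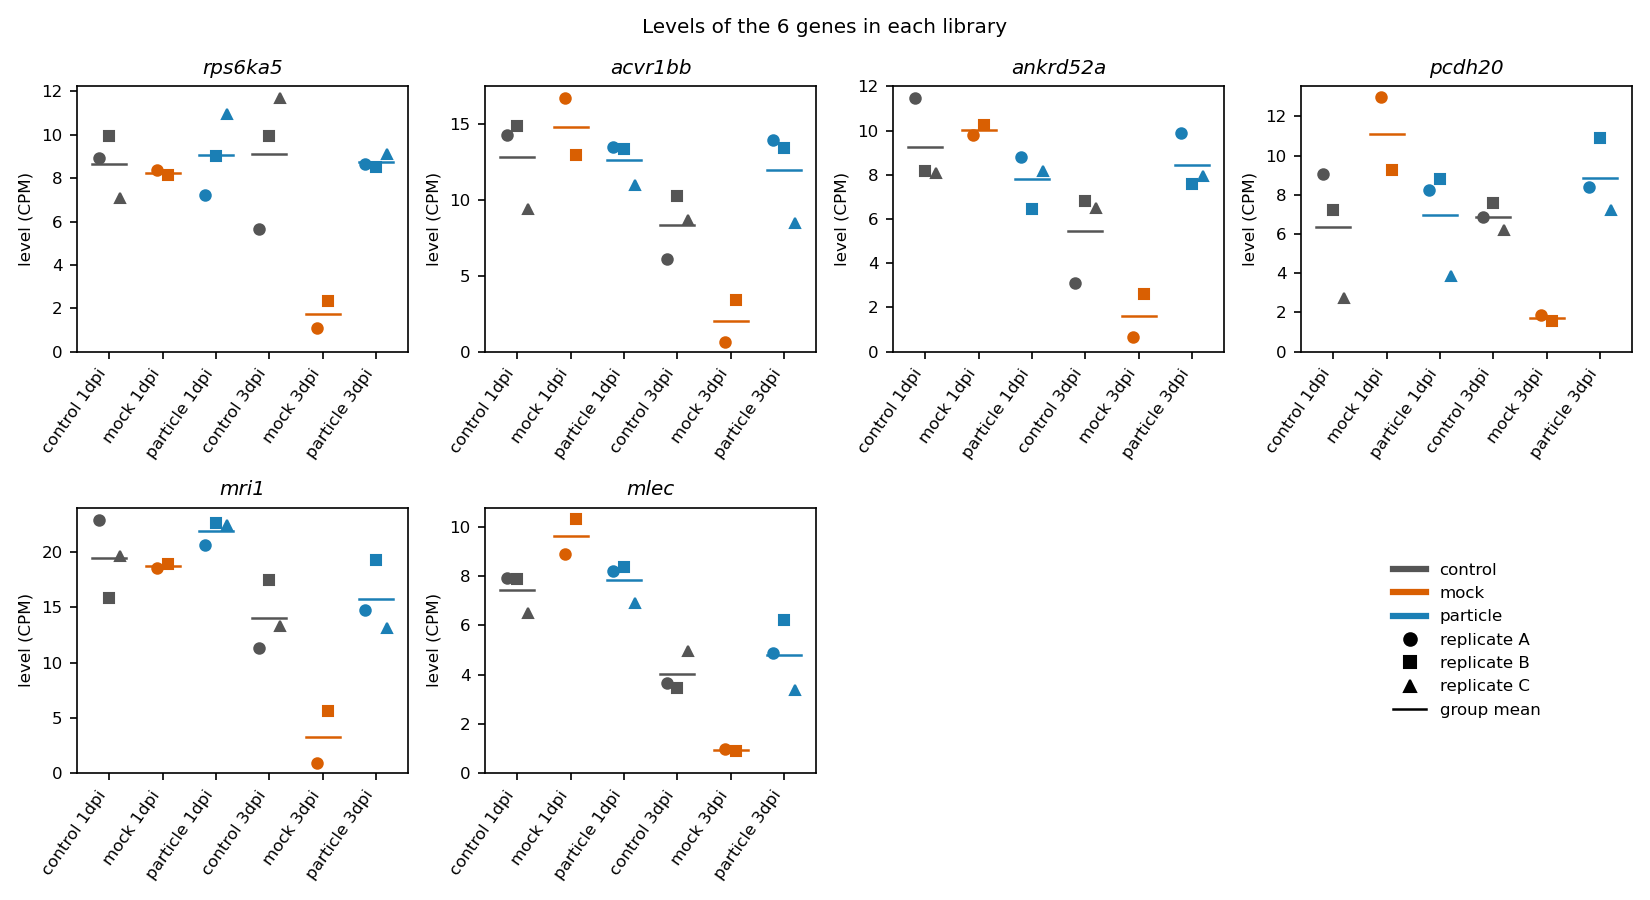
Level in CPM (vertical axis, linear from 0) of each of the 6 genes in the 16 libraries, grouped by treatment and time, with replicate letters as symbols and group means as lines. In every panel the 2 orange symbols of 3 dpi mock lie below the 14 others.

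Rps6ka5 held 1.09 and 2.34 CPM in the 3 dpi mock libraries A and B, where 10 and 18 reads were counted. Its other 3 dpi levels were 5.67, 9.95 and 11.7 CPM in control A, B and C and 8.67, 8.51 and 9.10 CPM in particle A, B and C. At 1 dpi it held 8.91, 9.93 and 7.09 CPM in controls, 8.36 and 8.12 CPM in mock embryos, and 7.23, 9.02 and 10.96 CPM with particles. Outside 3 dpi mock the 5 group means of this kinase gene lay between 8.24 and 9.11 CPM and every neighbour in their order overlapped. Single libraries spread more widely, from 5.67 to 11.7 CPM, both in 3 dpi controls. The log2 difference at 3 dpi was 2.37 for particle minus mock and 2.43 for control minus mock, and -2.28 for 3 dpi minus 1 dpi in mock embryos. The comparisons with 3 dpi mock share those libraries and are not independent of each other.

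Acvr1bb held 0.653 and 3.38 CPM in 3 dpi mock A and B, from 6 and 26 reads. The 3 dpi controls held 6.12, 10.3 and 8.69 CPM and the particle libraries 13.96, 13.4 and 8.46 CPM. At 1 dpi its levels were 14.3, 14.9 and 9.39 CPM in controls, 16.7 and 12.9 CPM in mock embryos and 13.5, 13.3 and 11.01 CPM with particles. In the 3 groups of 1 dpi and in particle embryos of 3 dpi this receptor gene had means from 11.9 to 14.8 CPM. Neighbours in the order of group means overlapped throughout, 3 dpi mock excepted. Particle minus mock at 3 dpi was 2.60, control minus mock 2.09, and mock 3 dpi minus 1 dpi -2.91.

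Ankrd52a held 0.653 and 2.60 CPM in 3 dpi mock A and B, from 6 and 20 reads. In 3 dpi controls it held 3.11, 6.82 and 6.48 CPM, the lowest of these only just above mock B, and in particle libraries 9.87, 7.57 and 7.93 CPM. Levels at 1 dpi were 11.5, 8.17 and 8.06 CPM in controls, 9.81 and 10.2 CPM in mock embryos and 8.82, 6.46 and 8.19 CPM with particles. At 3 dpi the mean of this phosphatase subunit gene was 8.46 CPM with particles and 5.47 CPM in controls, a difference that did not pass edgeR's test (unadjusted p = 0.0907). Particle minus mock at 3 dpi was 2.41, control minus mock 1.78, and mock 3 dpi minus 1 dpi -2.65.

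The row labelled pcdh20 held 1.85 and 1.56 CPM in 3 dpi mock A and B, from 17 and 12 reads. Its 3 dpi controls held 6.86, 7.60 and 6.20 CPM and its particle libraries 8.39, 10.9 and 7.23 CPM. At 1 dpi it held 9.07, 7.24 and 2.76 CPM in controls, 12.98 and 9.25 CPM in mock embryos and 8.27, 8.82 and 3.87 CPM with particles. Both C libraries of 1 dpi were low for this adhesion gene, and 1 dpi mock A was the highest of all 16 libraries. Particle minus mock at 3 dpi was 2.36, control minus mock 2.00, and mock 3 dpi minus 1 dpi -2.69. The identifier of this row is named pcdh20l in the RefSeq gene table, while a further row, PCDH20 (ENSDARG00000036424, chromosome 11), carries the name pcdh20 there.

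Mri1 held 0.871 and 5.60 CPM in 3 dpi mock A and B, from 8 and 43 reads. The 3 dpi controls held 11.3, 17.4 and 13.3 CPM and the particle libraries 14.7, 19.3 and 13.2 CPM. At 1 dpi the levels were 22.9, 15.8 and 19.6 CPM in controls, 18.6 and 19.0 CPM in mock embryos and 20.7, 22.6 and 22.5 CPM with particles. This salvage enzyme gene had its 3 dpi control and particle means below all 3 means of 1 dpi. The difference between the 2 times did not pass edgeR's test in controls (adjusted p = 0.507) or with particles (adjusted p = 0.503). Particle minus mock at 3 dpi was 2.31, control minus mock 2.15, and mock 3 dpi minus 1 dpi -2.57.

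Mlec held 0.980 and 0.911 CPM in 3 dpi mock A and B, from 9 and 7 reads. The 3 dpi controls held 3.66, 3.47 and 4.95 CPM and the particle libraries 4.87, 6.19 and 3.37 CPM. At 1 dpi it held 7.91, 7.86 and 6.48 CPM in controls, 8.91 and 10.3 CPM in mock embryos and 8.20, 8.35 and 6.92 CPM with particles. From 1 to 3 dpi the mean of this lectin gene went from 7.42 to 4.02 CPM in controls and from 7.82 to 4.81 CPM with particles. Neither change passed edgeR's test (adjusted p = 0.0801 and 0.119). Particle minus mock at 3 dpi was 2.32, control minus mock 2.09, and mock 3 dpi minus 1 dpi -3.33, the lowest of the 6.

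The 3 dpi mock libraries A and B did not hold these genes equally low. For mri1 the ratio of B to A was 6.43, for acvr1bb 5.18, for ankrd52a 3.99 and for rps6ka5 2.15. It was 0.930 for mlec and 0.844 for pcdh20. Exact 95% Poisson intervals, which cover counting error only, were apart for mri1 (0.376 to 1.72 CPM in A, 4.05 to 7.54 in B), for acvr1bb (0.240 to 1.42 and 2.21 to 4.96) and for ankrd52a (0.240 to 1.42 and 1.59 to 4.02). They overlapped for rps6ka5, pcdh20 and mlec. A lay below B in 4 of 6 genes, against 49.4% of all genes tested. Without mock A the log2 difference of particle minus mock was 1.90 for rps6ka5, 1.81 for acvr1bb, 1.69 for ankrd52a and 1.48 for mri1. Without mock B it was 3.01, 4.18, 3.68 and 4.17 for the same genes. Over all alternatives pcdh20 stayed between 2.18 and 2.72 and mlec between 2.11 and 2.68. The size of the difference in the 4 genes with unequal mock libraries depends on which of the pair is used. Its direction was fixed by the choice of genes, since both mock libraries lay below all others.

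**Figure D2:**
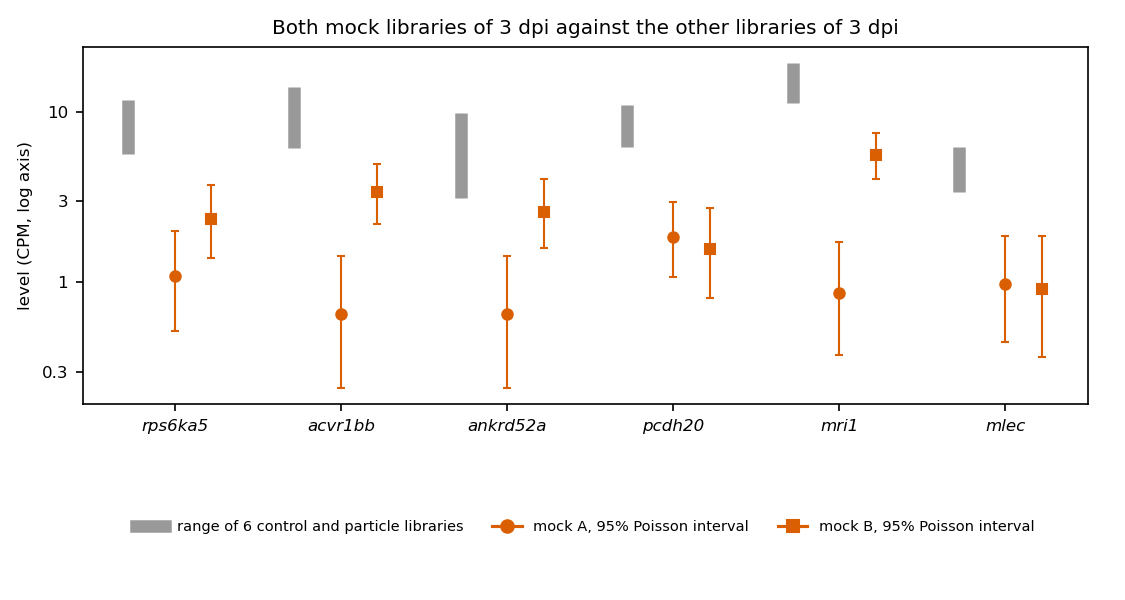
Levels (CPM, log axis) of the 6 genes in 3 dpi mock A (circles) and B (squares), with exact 95% Poisson intervals, beside grey bars for the range of the 6 control and particle libraries of 3 dpi. The intervals of A and B are apart for acvr1bb, ankrd52a and mri1, and the points of both lie under the grey bar for all 6 genes.

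The 6 genes were tested in comparisons without 3 dpi mock libraries. EdgeR's quasi-likelihood test was used, with Benjamini-Hochberg adjustment over 23623 genes and a threshold of 0.05. A single fit over all 16 libraries gave the spread, so the unequal 3 dpi mock pair entered the SE of these tests too. Normal development from 3 to 5 dpf was read from control embryos, 3 dpi against 1 dpi. None of the 6 genes passed the test, beside 1.39% of all genes (280 higher and 48 lower), and 2 of the 6 had an unadjusted p under 0.05. Mlec had a log2 difference of -0.86 (SE 0.232, adjusted p = 0.0801), with all 3 libraries of 3 dpi below all 3 of 1 dpi. DESeq2 called it lower with adjusted p = 0.0293, where it called 1300 genes (6.23% of those to which it gave an adjusted p). EdgeR on the A and B libraries alone also called it (adjusted p = 0.0249, beside 2.91% of all genes). Limma-voom called 0 of the 6, beside 1.26% of all genes. Ankrd52a stood at -0.75 (SE 0.344, adjusted p = 0.269), also with no overlap of its libraries. Such separation downwards was seen in 2 of 6 genes and in 10.9% of all genes tested. Acvr1bb had -0.61 (adjusted p = 0.385) and mri1 -0.48, while rps6ka5 at 0.09 and pcdh20 at 0.13 had values near 0 that turned negative without control C of 1 dpi and, for rps6ka5, also without control C of 3 dpi.

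In particle embryos, 3 dpi against 1 dpi, again 0 of 6 genes passed edgeR's test, beside 2.07% of all genes, and 1 of the 6 had an unadjusted p under 0.05. DESeq2 and limma-voom also called 0 of them. DESeq2 called 1474 genes (7.07% of those to which it gave an adjusted p) and limma-voom 2.16% of all genes. Mlec had a log2 difference of -0.71 (adjusted p = 0.119). Mri1 had -0.48 and pcdh20 0.34. Rps6ka5 at -0.05, acvr1bb at -0.08 and ankrd52a at 0.11 lay within their standard errors of 0. The median over the 6 genes was -0.55 in controls and -0.07 with particles, beside medians near 0 over all genes. Whether these time courses differ between particle and control embryos was tested as an interaction. EdgeR called 0 of 6 and 0 of 23623 genes in it, with 212 of all genes and 0 of the 6 at an unadjusted p under 0.05. Those 212 are fewer than a threshold of 0.05 passes by chance, so 0 calls do not show equal time courses. DESeq2 and limma-voom called 0 of the 6 there too, beside 1 and 0 of all genes. Interaction values of the 6 ran from -0.14 to 0.86, the highest for ankrd52a (adjusted p = 1.00).

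**Figure D3:**
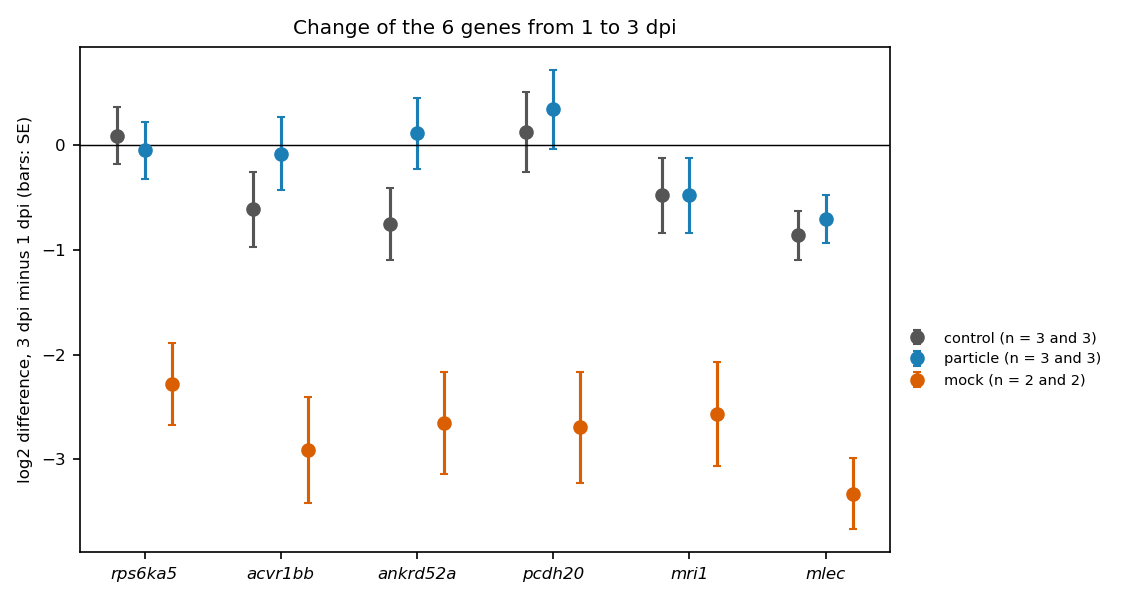
Log2 difference between 3 dpi and 1 dpi (vertical axis, bars are SE) of the 6 genes in control, particle and mock embryos. Control and particle values lie between -0.86 and 0.34. The mock values lie between -3.33 and -2.28 and rest on the 3 dpi mock libraries, whose low levels chose the genes. The bars of the mock values are no test.

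Particle against control at 3 dpi compares injected with non-injected embryos without the mock libraries. The genes were picked by setting these same particle or control libraries against mock, so this comparison, like those over time, is not wholly free of that choice. None passed the test: all 6 had an adjusted p of 1.00 by edgeR, 0 had an unadjusted p under 0.05, and DESeq2 and limma-voom called 0 of them. Over all genes edgeR, DESeq2 and limma-voom each called 0, with 370 at an unadjusted p under 0.05 by edgeR. Those 370 are fewer than a threshold of 0.05 passes by chance, so 0 calls do not show equal levels. The log2 values were 0.62 for ankrd52a, 0.51 for acvr1bb, 0.36 for pcdh20, 0.23 for mlec, 0.17 for mri1 and -0.06 for rps6ka5. The value of ankrd52a ran from 0.35 to 0.82 over the alternatives, while that of mri1 turned negative without particle B and that of rps6ka5 positive without control B or control C.

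The 3 treatments were also compared at 1 dpi. Particle against control gave log2 values from -0.24 to 0.17, particle against mock from -0.67 to 0.22, and mock against control from -0.06 to 0.82. By edgeR, DESeq2 and limma-voom 0 of 6 genes passed in any of these comparisons, and 0 had an unadjusted p under 0.05 by edgeR. Over all genes edgeR called 0.00423% (1 gene) in the first and 0 in the others, with 535, 555 and 2678 genes at an unadjusted p under 0.05. Of these, 535 and 555 are fewer than a threshold of 0.05 passes by chance. DESeq2 called 7, 4 and 55 of all genes in these comparisons, in the same order, and limma-voom 0 in each. The outermost values belonged to pcdh20, at 0.82 for mock minus control (adjusted p = 0.451) and -0.67 for particle minus mock (adjusted p = 0.921). Without control C of 1 dpi, its library of 2.76 CPM, the former was 0.44. At 1 dpi the mock mean was the highest of the 6 groups for acvr1bb, ankrd52a, pcdh20 and mlec. Its libraries overlapped those of the next group for all of these but mlec. The mock mean was the lowest of the 3 groups of that time for rps6ka5 (8.24 against 8.65 and 9.07 CPM) and mri1 (18.8 against 19.5 and 21.9 CPM). No share over all genes is given for these orders, so nothing is read from them.

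Close relatives and partners of the 6 genes, 14 names of which 12 matched a row, were compared between particle and mock embryos at 3 dpi with a test. They were named for their relation to the 6 genes, but with earlier results of these data known. This comparison was added after they were set. In this comparison edgeR called 5.3% of all genes higher and 3.35% lower. Rps6ka4, the other MSK kinase, was higher with particles, with a log2 difference of 1.18 (adjusted p = 0.0187, SE 0.248). The levels were 5.99 and 8.72 CPM in 3 dpi mock A and B, 14.1, 11.3 and 12.9 CPM in controls and 20.1, 17.3 and 12.5 CPM with particles, so that both mock libraries were the lowest of 3 dpi. Acvr1ba, the paired activin receptor gene of acvr1bb, had -0.08 (adjusted p = 0.866), with 77.5 and 74.7 CPM in mock A and B and 62.5 to 78.7 CPM in the others.

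For the phosphatase, the catalytic subunit gene ppp6c went the other way from ankrd52a and was lower with particles, with a log2 difference of -0.72 (adjusted p = 0.0266, SE 0.168). The levels were 105 and 71.1 CPM in 3 dpi mock A and B and 50.1 to 64.9 CPM in the other 6 libraries of 3 dpi. Ankrd28b, a related ankyrin subunit gene, had -0.10 (adjusted p = 0.761). In the methionine salvage pathway enoph1, which acts downstream of mri1, was lower with particles at -0.64 (SE 0.159, adjusted p = 0.0308). The remaining salvage genes mtap (-0.38), apip (0.11) and adi1 (-0.46) did not pass. Rpn1 at 0.05 and rpn2 at 0.12, ribophorins of the oligosaccharyltransferase complex with which mammalian malectin associates, did not pass either. Among protocadherins, pcdh17 had 0.00 (adjusted p = 0.996) and pcdh19 -0.63 (adjusted p = 0.0504). Pcdh19 passed edgeR's test with RLE size factors (adjusted p = 0.0450), the replicate block (0.0116 as adjusted p), A and B only (0.0113) and without particle C (0.0413). Those settings called 8.86%, 21.7%, 24.3% and 9.34% of all genes, beside 8.65% without such changes. The value of pcdh19 was -0.40 without mock A and -0.83 without mock B.

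The second row named for protocadherin 20, PCDH20, held 1.96 and 5.99 CPM in 3 dpi mock A and B and 7.27 to 9.98 CPM in the other libraries of 3 dpi. Its log2 value for particle minus mock was 1.16 (SE 0.382, adjusted p = 0.0723), which does not pass, and it was named after its values were seen. It passed edgeR's test with library totals alone (adjusted p = 0.0442), the replicate block (0.0299 as adjusted p) and A and B only (0.0284). Those settings called 12.7%, 21.7% and 24.3% of all genes, beside 8.65% without such changes. The value of PCDH20 was 0.55 without mock A and 2.17 without mock B. In control against mock at 3 dpi the values were 0.80 for rps6ka4 (adjusted p = 0.0954), -0.55 for ppp6c (adjusted p = 0.0933) and -0.47 for enoph1 (adjusted p = 0.122), none of which pass. In particle against mock without particle A or particle B, none of rps6ka4, ppp6c and enoph1 passed the test. Nor did they with only the particle and mock libraries of 3 dpi in the fit (edgeR adjusted p = 0.149, 0.149 and 0.163), where 0 of all genes passed. With library totals alone ppp6c (adjusted p = 0.150) and enoph1 (adjusted p = 0.247) did not pass. Log2 values without mock A were 0.92 for rps6ka4, -0.41 for ppp6c and -0.36 for enoph1. Over the alternatives the adjusted p ran from 0.00474 to 0.256 for rps6ka4, from 0.00208 to 0.342 for ppp6c and from 0.00329 to 0.390 for enoph1. The direction of these 3 genes held in every alternative run, whereas acvr1ba, ankrd28b and pcdh17 took values above 0 when libraries were scaled to their totals alone, a setting that lifts the median of all genes from 0.03 to 0.37.

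**Figure D4:**
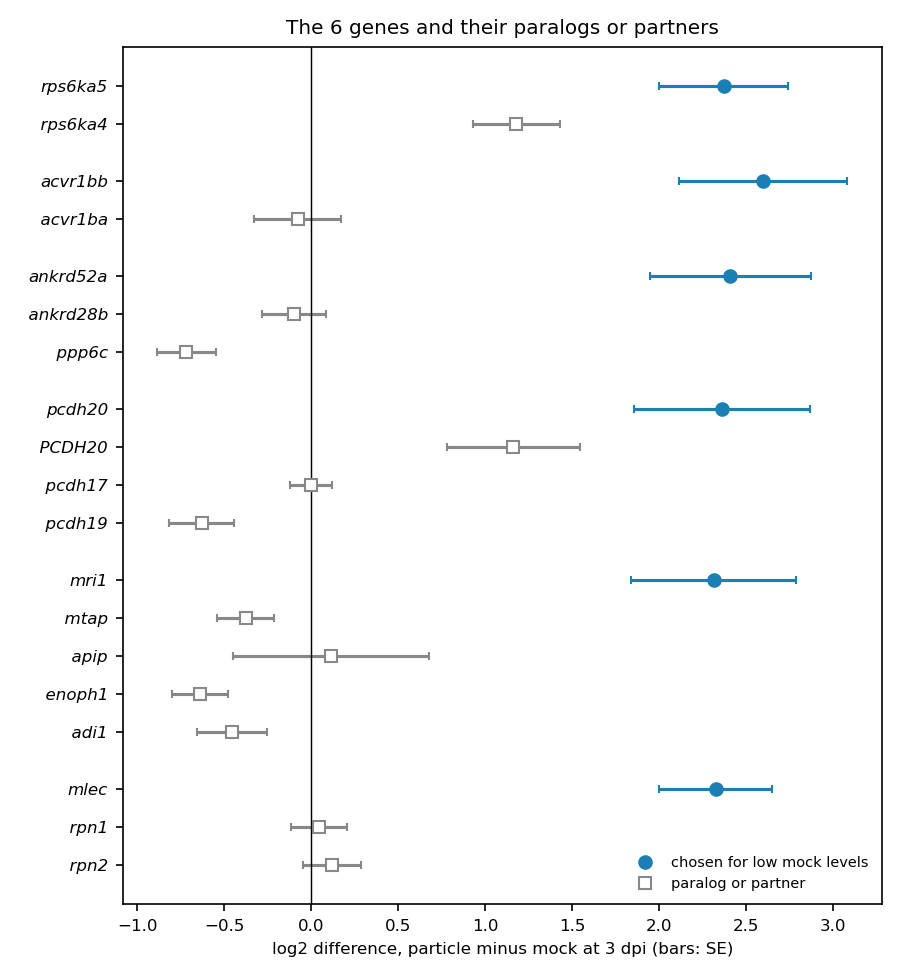
Log2 difference of particle minus mock at 3 dpi (horizontal axis, bars are SE) for the 6 genes (filled circles) and for relatives or partners listed under each (open squares). The 6 picked genes lie between 2.31 and 2.60, rps6ka4 and PCDH20 at 1.18 and 1.16, and the other relatives and partners between -0.72 and 0.12. The bars of the 6 picked genes are no test, since this comparison chose them.

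The 7 lists of pathway genes around these members, 170 other genes tested, were counted in the same comparison. The lists were chosen with earlier results of these data known, and this comparison was added after they were set. They surround genes picked for low levels in the same 3 dpi mock libraries, so nothing about particles is read from their counts. EdgeR called 15 of the 170 higher with particles than with mock injection (8.82%, beside 5.3% of all genes) and 4 lower (2.35%, beside 3.35%). The median log2 value was 0.09, beside 0.03 over all genes. Called in all without mock A were 0 (beside 0.00829% of all genes), without particle B 0 (0.271%), without particle A 3 (1.28%) and without mock B 39 (16.2%), so the pathway count moved with that of all genes. Control against mock at 3 dpi, which shares the mock libraries, called 3 of the 170 higher (fgfr3, pcdh1b and calr3b) and 0 lower, beside 1.19% and 0.428% of all genes. The split of 15 to 4 became 31 to 0 with library totals alone. With only the particle and mock libraries of 3 dpi in the fit the count was 0, as it was for all genes. The genes named next were chosen after their values were seen, as those called.

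Of 41 genes of the MAP kinase cascade and its receptors, 6 were higher and 0 lower with particles than with mock, beside 5.3% and 3.35% of all genes. The kinase gene mapk3 (log2 value 0.62, adjusted p = 0.0495) was among them, with the scaffold gene ksr1a (1.21), the exchange factor gene rasgrp3 (1.72), the phosphatase gene ptpn11b (1.07) and the receptor gene fgfr3 (1.49). The median over the 41 genes was 0.15. In particle against control at 3 dpi edgeR called 0 of the 41, and their median was 0.02. Mapk3 did not pass with RLE size factors (adjusted p = 0.0552) or with no filter on low counts (adjusted p = 0.0596). Without mock A and without mock B the log2 values were 0.41 and 0.87 for mapk3, 0.80 and 1.75 for ksr1a, 1.16 and 2.56 for rasgrp3, 0.67 and 1.59 for ptpn11b and 0.86 and 2.55 for fgfr3. Of 21 kinase and CREB genes around the RSK and MSK family 1 was higher with particles than with mock, rps6ka4, and 0 were lower.

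Of 38 activin and TGF-beta genes, 4 were higher and 0 lower with particles than with mock, beside 5.3% and 3.35% of all genes. The 4 were the type II activin receptor gene acvr2ab (1.76, adjusted p = 0.0216), the type I receptor gene tgfbr1b (1.503, adjusted p = 0.0214), the ligand gene tgfb1a (1.13) and skila (1.48), a Ski family gene whose mammalian relatives restrain Smads. In particle against control and in control against mock at 3 dpi edgeR called 0 of the 38. Acvr2ab, whose product pairs with type I receptors such as acvr1bb, held 1.52 and 4.69 CPM in 3 dpi mock A and B and 5.39 to 11.5 CPM in the other 3 dpi libraries. Among 16 protocadherin genes 3 were higher with particles, pcdh12 (1.99), pcdh8 (1.49) and pcdh1b (1.18), and pcdh10b was lower (-0.59). Without mock A and without mock B the log2 values were 1.14 and 2.76 for acvr2ab, 1.03 and 2.15 for tgfbr1b, 0.77 and 2.82 for skila and 0.80 and 1.68 for pcdh1b. Pcdh12 moved the other way, with 2.93 without mock A and 1.48 without mock B. Pcdh10b did not pass edgeR's test with library totals alone (adjusted p = 0.270). Of 6 phosphatase 6 genes and 22 methionine genes 0 were higher with particles, and those that were lower were ppp6c and enoph1. Of 26 ER glycoprotein folding genes calr3b, a calreticulin gene, was higher with particles (1.19) and man1b1a, an ER mannosidase gene, was lower (-0.71). Without mock A and without mock B these were 0.80 and 1.71 for calr3b and -0.33 and -1.002 for man1b1a. Man1b1a did not pass edgeR's test with no filter on low counts (adjusted p = 0.0625) or with library totals alone (adjusted p = 0.266).

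In control embryos, 3 dpi against 1 dpi, edgeR called 1 of these 170 genes higher and 2 lower, beside 1.19% higher and 0.203% lower over all genes. Mat2ab, a methionine adenosyltransferase gene, rose by a log2 value of 1.97 (adjusted p = 0.00237), from 3.41, 3.83 and 4.80 to 12.5, 22.03 and 13.1 CPM. Calr3b fell by 1.16 on the log2 scale (adjusted p = 0.0224), from 42.6, 41.6 and 43.7 to 19.5, 17.4 and 20.1 CPM. Pcdh8 fell by 1.15 (adjusted p = 0.0262), from 19.2, 21.6 and 23.0 to 8.68, 7.71 and 12.1 CPM. Without control B or C of 1 dpi, or control A or B of 3 dpi, neither calr3b nor pcdh8 passed, with adjusted p up to 0.108 and 0.127, and their log2 values stayed at or below -1.03. With only the control libraries in the fit mat2ab (adjusted p = 0.0786) and pcdh8 (adjusted p = 0.0977) did not pass. With both 3 dpi mock libraries left out of the fit 3 protocadherin genes and 2 genes of the ER list were called lower in place of 1 and 1. That fit called 1.73% of all genes in either direction, beside 1.39% with these libraries kept. The ER glycoprotein list, to which mlec belongs, had a median of -0.49 with 3 of its other 26 genes above 0. In particle embryos over the same interval that list had 6 of 26 genes called lower and 0 higher, beside 0.508% lower and 1.56% higher over all genes, and a median of -0.58. Particle against control at 3 dpi called 0 of the 170 genes and had a median of 0.00, beside 0.00 over all genes.

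The levels of the 6 genes moved together over the 16 libraries, with Pearson's r of log2 CPM between 0.68 and 0.96 over their 15 pairs and a median of 0.85. The genes were picked for low levels in the same libraries, so nothing is read from these values. Over the 14 libraries without 3 dpi mock, r ran from -0.03 to 0.77 with a median of 0.37, and over the 8 libraries of 1 dpi from -0.29 to 0.93 with a median of 0.06. The libraries share depth and composition with every gene in them, and these values are descriptions. Acvr1bb and mri1 had r = 0.96 over 16 libraries and 0.64 over 14. Acvr1bb and ankrd52a had 0.96 and 0.77, the latter the highest of the 15 pairs over 14 libraries.

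The 13441 candidate genes averaged 5 CPM or more and had a unique symbol without a colon. Of these, kctd5a (r = 0.98 over 16 libraries, 0.94 over 14) and arfgap2 (0.98, 0.93) were among the 3 whose profiles were most like mlec. Prrg1 was closest to acvr1bb (0.99 over 16, 0.92 over 14), followed by MFAP3L and slc7a5. For ankrd52a the 3 closest included numbl (0.97, 0.81) and xrg5, and for mri1 aes (0.98, 0.81) and zfyve28. For pcdh20 they were slc4a2b (0.94, 0.84), tuft1b and vamp8. Rps6ka5 was most like rbsn (0.97), svopa and pcbp3, with r of 0.71 for rbsn, 0.62 for svopa and 0.58 for pcbp3 once the 3 dpi mock libraries were left out. For the 3 genes closest to acvr1bb the values over 14 libraries were 0.92. Likeness was ranked by r over 16 libraries, among them the 3 dpi mock libraries whose low levels chose the genes described here. Such a ranking favours genes that also stand low there. For the genes named as alike, log2 values of particle minus mock at 3 dpi ran from 0.92 (arfgap2) to 2.37 (slc7a5). Values over 14 libraries are those of genes already picked over 16, so nothing is read from this ranking.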

How the data were processed

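Read counts per gene of 16 libraries were used as deposited. The authors aligned reads with Bowtie2 to GRCz10, handled them with SAMtools and normalised with DESeq, per the submitters' processing notes, with no versions given. Which counter and annotation release were used, and how strand and reads shared by related genes were treated, is not given in the sources used here, so close copies such as acvr1ba and acvr1bb, or both protocadherin 20 rows, carry that uncertainty. The deposited columns were entered under the unit expected counts because a size factor with decimals stands at the foot of each, but 100% of the gene values are whole. These feet and the empty rows (2 rows per file) were dropped. Groups and replicate letters follow the sample titles.

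The tests used edgeR 4.0.16 in R 4.3.3, with limma 3.58.1 (limma-voom) and DESeq2 1.42.0 as alternatives. Figures were made by matplotlib 3.10.9 under python 3.11.15. FilterByExpr chose the genes (minimum count 10, minimum total 15), TMM scaled the libraries, and 6 group means were fitted over all of them, with quasi-likelihood tests adjusted by Benjamini-Hochberg over 23623 genes at 0.05. A prior count of 2 entered log2 CPM. SE is the absolute log2 difference divided by the square root of edgeR's quasi-likelihood F statistic. The tests were tested on simulated data. Libraries of one group differed from each other by a chi-square per degree of freedom of 6.02 to 98.4, so none repeats another. Precision follows the counts: 3 counts were worth 0.144 to 0.391 CPM.

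The genes and all gene lists were chosen with earlier results of these data known. Results for 1 of the 7 genes, and for some genes the naming rule gives, are not reported here, and counts of the chosen genes are over the other 6. Named are these 6 genes, their relatives and partners, up to 3 called genes per pathway list in control embryos over time, and the 3 most alike profiles per gene by Pearson's r. Of the list entries 258 matched by symbol, 16 by Entrez and 3 by Ensembl identifier, and 10 did not match. Same-letter libraries deviated together in particle embryos over time and in particle against control at 1 dpi (r from 0.112 to 0.745 over the 3 pairs of each), where a term for the letter changed no call among the 6. The pairing there comes from the data, not the labels. Where both groups hold C libraries, the C pair had the highest r of each comparison. It was 0.321 in controls and 0.542 in particle embryos over time. For particle against control it was 0.569 at 3 dpi and 0.745 at 1 dpi. Mock groups have no C library, so comparisons with mock are not balanced for the letter. Alternatives were other scalings, tools and filters, fewer libraries, a term for the letter, and each library left out in turn.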

Additional observations from a re-analysis of the deposited data

How the results depend on the processing

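Of the counts of the 6 genes that passed in the comparisons without 3 dpi mock, all stayed at 0 under every alternative run except control embryos over time, where the replicate block, DESeq2 and the A and B libraries alone each gave 1 (mlec, lower). Those settings called 6.65%, 6.23% and 2.91% of genes there, beside 1.39% without such changes. The DESeq2 share is over the genes to which it gave an adjusted p, the others over all genes. In control embryos over time not every same-letter pair of libraries deviated together (r from -0.01 to 0.32), so that the block value is a hint only. The 19 pathway genes called between particle and mock embryos at 3 dpi became 31 with library totals alone (beside 12.7% of all genes), 39 with the replicate block (21.7%), 43 with A and B only (24.3%) and 0 with only the groups compared (0%), and from 0 to 39 with single libraries left out. The cause was not tested. Library totals alone reversed the particle minus mock value at 3 dpi of acvr1ba (0.27), ankrd28b (0.25) and pcdh17 (0.33), by a shift that all genes share, and that of ankrd52a in particle embryos over time (-0.000892). Pcdh17, at 0.00, also turned with no filter (0.0085), the replicate block (0.0275), A and B only (0.0271) and only the groups compared (0.00787). With A and B only, apip turned (-0.0305), as did rps6ka5 (-0.27) and pcdh20 (-0.17) in controls over time, rps6ka5 (0.0711) and acvr1bb (0.0204) in particle embryos over time, and rps6ka5 (0.14) in particle minus control at 3 dpi. With single libraries left out, particle minus mock at 3 dpi ran from -0.42 to 0.94 for apip, -0.0445 to 0.13 for rpn1 and -0.0925 to 0.10 for pcdh17. Controls over time ran from -0.15 to 0.33 for rps6ka5 and -0.25 to 0.49 for pcdh20. Particle embryos over time ran from -0.19 to 0.11 for rps6ka5, -0.21 to 0.12 for acvr1bb and -0.0155 to 0.21 for ankrd52a. Particle minus control at 3 dpi ran from -0.31 to 0.17 for rps6ka5 and -0.0082 to 0.35 for mri1. Called counts of the 6 without both 3 dpi mock libraries, an alternative chosen after seeing the data, were 0. That fit called 1.73% of all genes in controls over time and 2.44% in particle embryos over time. Depth limits the 3 dpi mock levels, which rest on 6 to 43 reads per gene and library.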
